A study of Caenorhabditis elegans with 16 samples.

Results

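RNA polymerase occupancy of the nuclear hormone receptor genes of *C. elegans* was examined in 2 epidermal cell types. The genes were all protein-coding genes of the WBcel235 annotation with a symbol of *nhr-* and a number, except *nhr-23*, *nhr-25* and *nhr-73*, which left 266 of the 19983 protein-coding genes with at least 1 measured fragment. The rule used gene symbols and no measured value, but it was set with earlier results of these data known. Occupancy came from targeted DamID (TaDa), in which the bacterial Dam methylase is fused to RPB-6, an RNA polymerase subunit, and methylates GATC sites near the polymerase. The study describes RPB-6 as part of every RNA polymerase complex, so the values are not specific to RNA polymerase II. In seam cells, the lateral epidermal cells that divide in a stem cell-like manner, the fusion was driven by the *srf-3i1* enhancer with a minimal *pes-10* promoter (strain MBA698). In the hypodermis, the large syncytium that covers most of the body, it was driven by *dpy-7syn1*, a synthetic form of the *dpy-7* collagen promoter (strain MBA688). Dam:NLS-GFP under the same promoter was the control in each cell type (strains MBA692 and MBA693). Larvae were collected at L2 (24 h) and at L4 (48 h), with 2 replicates of the fusion and 2 of the control in each cell type and at each stage, which makes 16 samples, all grown on dam-/dcm- bacteria. All 4 strains carry the *unc-119(ed3)* mutation and, within the inserted transgene, the *unc-119* gene of *C. briggsae* that rescues it. The transgenes were single-copy insertions made at low levels, each strain is 1 transgenic line, and DNA came from whole larvae, so a value stands for every cell in which the driver is active. Each replicate came from its own egg preparation, which was divided between the L2 and the L4 collection.

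Nuclear hormone receptors are transcription factors with a zinc finger domain that binds DNA and a domain that can bind a small lipophilic ligand. Nematodes carry a greatly expanded family, most of it descended from a receptor related to HNF4, a regulator of metabolism in mammals, and many members lie in clusters on chromosome V. In the epidermis, receptors of this class are known for their part in moulting, seam cell development and the timing of larval stages, and elsewhere in the worm for fat metabolism, diet and the response to toxins.

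Occupancy is given on the log2 scale as Dam:RPB-6 over Dam:NLS-GFP, averaged over the GATC fragments that overlap a gene with weights by overlapped length, so 1 is 2-fold over the control and 0 is no difference from it. No read counts go with the deposited ratios, so their depth is unknown, a score of 0 cannot be separated from missing signal, and levels of different genes also depend on their GATC sites. Among the 8 profiles used, replicate 1 of seam cells at L2 stood apart: over all genes its Pearson's r with the other profiles was 0.31 to 0.40, whereas all pairs among the other 7 reached 0.55 to 0.81. Replicate 2 of the same group had a summed body wall muscle score of 7.45 over the 5 markers tested, against 0.81 in replicate 1, -2.59 to -1.31 in seam cells at L4 and -5.56 to -2.86 in the hypodermis, and none of these 5 genes passed the test of occupancy above 0 in any group. Their part in the receptor values of that replicate was not tested. The profile of seam cell replicate 1 against control 1 at L4 was left out, since over fragments it had r = 0.996 with log2 of that group's control 2 over its control 1, and r = -0.35 with the same replicate against control 2. The 7 seam markers had median occupancy of 1.56 at L2 and 2.26 at L4 in seam cells and between -0.05 and -0.00 in the hypodermis. The 6 hypodermis markers had medians of 0.48 and 1.10 in seam cells and 1.49 and 1.30 in the hypodermis, but single markers differed. At L4, *dpy-7* (4.003), *rol-6* (3.406) and *elt-3* (1.118) were higher in seam cells than in the hypodermis (2.107, 2.412 and 0.7126). *osm-7*, *wrt-8* and *col-19* were lower in seam cells at L4. *rol-6* and *dpy-7* passed the test of occupancy above 0 in seam cells at L4, and no hypodermis marker did in the hypodermis at L4. In the hypodermis at L2, *osm-7* and *dpy-7* passed. The 6 intestine markers and the 5 germline markers had none at 2-fold in either cell type, and of 6 neuron markers only *snb-1* was, in the hypodermis at L2.

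The receptor genes had a median length of 2293 bp and were covered by a median of 8 GATC fragments, close to the 2026 bp and 7 fragments of all genes. Of the 266 genes, 167 lie on chromosome V, 33 on IV, 22 on X, 21 on I, 15 on II and 8 on III. They were not all measured equally well. Under 3 fragments covered 8 of them, 130 shared at least 1 fragment with another protein-coding gene and 3 had no fragment of their own. Repeated sequence also matters for read mapping in this family, and over 10% of the 31-base words of 30 receptor genes occur elsewhere in the genome.

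The unit of every value is the fragment between neighbouring GATC sites, and 4 fragments are shown to give the resolution of the assay in genes to which the results below return. Each is the fragment between 100 and 296 bases long, free of UTR, with the highest lower score of both replicates in the group in which the gene stood out, so their scores are a description. Sequences are from WBcel235, written 5′ to 3′ on the strand of the gene, with the terminal GATC sites in capitals.
nhr-114 fragment, chrV:4187242-4187442, plus strand: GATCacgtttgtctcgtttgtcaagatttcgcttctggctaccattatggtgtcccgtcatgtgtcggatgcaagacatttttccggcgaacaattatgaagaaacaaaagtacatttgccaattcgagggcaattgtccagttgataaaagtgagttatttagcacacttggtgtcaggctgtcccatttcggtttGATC
nhr-22 fragment, chrII:6447444-6447681, minus strand: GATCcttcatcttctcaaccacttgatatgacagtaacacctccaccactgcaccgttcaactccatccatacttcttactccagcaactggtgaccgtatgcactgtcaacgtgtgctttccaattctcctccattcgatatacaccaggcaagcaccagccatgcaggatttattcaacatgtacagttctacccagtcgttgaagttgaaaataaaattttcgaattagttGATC
nhr-270 fragment, chrV:803502-803691, minus strand: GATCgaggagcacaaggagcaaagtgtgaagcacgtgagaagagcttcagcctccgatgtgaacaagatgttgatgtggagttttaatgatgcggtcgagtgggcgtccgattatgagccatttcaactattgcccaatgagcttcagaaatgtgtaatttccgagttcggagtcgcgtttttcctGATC
nhr-137 fragment, chrX:6664219-6664503, minus strand: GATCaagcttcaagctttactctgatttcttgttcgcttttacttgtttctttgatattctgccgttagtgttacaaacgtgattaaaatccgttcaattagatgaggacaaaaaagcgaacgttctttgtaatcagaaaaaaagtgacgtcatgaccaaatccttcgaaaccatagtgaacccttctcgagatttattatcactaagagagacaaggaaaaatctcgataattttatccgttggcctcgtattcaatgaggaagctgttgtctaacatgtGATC

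The *nhr-114* fragment starts 40 bases into the gene, and 151 of its 201 bases are coding sequence with the rest in an intron. Its scores were 2.78 and 2.68 in the hypodermis at L2 and 2.07 and 1.60 at L4, against 0.23 and -0.32 in seam cells at L4 and -1.47 and 1.25 at L2. The *nhr-22* fragment is coding sequence throughout, and its scores were 4.18 and 3.60 in the hypodermis at L2. In seam cells at L2 it scored almost as high, with 3.83 and 3.27. The *nhr-270* fragment, also wholly coding, scored 3.46 and 3.42 in seam cells at L4 and 0.00 and -0.02 in the hypodermis at that stage. The *nhr-137* fragment lies in an intron and scored 2.34 and 2.15 in seam cells at L4 against -0.68 and -2.13 in the hypodermis. Replicates could differ widely in a single fragment, as in that of *nhr-22*, where replicate 1 of seam cells at L4 scored 2.86 and replicate 2 scored 0.

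Most receptor genes, like most genes, had occupancy near that of the control in both cell types. The median over the 266 genes was 0.06 (L2) and 0.00 (L4) in seam cells, and 0.07 in the hypodermis at L2 and -0.01 at L4, beside medians over all genes of 0.06, -0.01, -0.02 and -0.02. Mean occupancy lay within 0.5 of 0 in 234 (88.0%), 224 (84.2%), 202 (75.9%) and 241 (90.6%) of them in the same order, beside 85.9%, 80.9%, 78.9% and 84.1% of all genes. Above 0 lay 190 in seam cells at L2, 133 at L4, 154 in the hypodermis at L2 and 123 at L4, beside 66.7%, 42.3%, 42.4% and 37.3% of all genes. Replicates of the receptor genes had r = 0.19 in seam cells at L2, 0.74 at L4, 0.79 in the hypodermis at L2 and 0.62 at L4, across genes, which are not independent replicates.

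**Figure D1:**
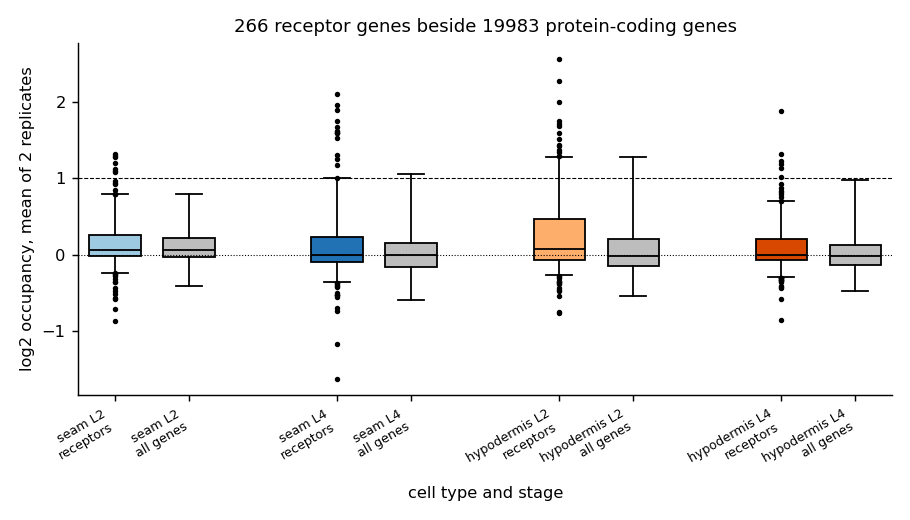
Log2 occupancy (vertical axis, mean of 2 replicates) of the 266 receptor genes (coloured) and of all 19983 protein-coding genes (grey) by cell type and stage, with boxes from the lower to the upper quartile, a line at the median and whiskers from the 5th to the 95th percentile. Points are receptor genes outside the whiskers, and the dashed line marks 2-fold, above which a few receptors stand over boxes that lie around 0.

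A small set stood above this background. With a log2 occupancy of at least 1 in both replicates, 4 receptor genes passed in seam cells at L2 (1.48% of all genes did), 12 at L4 (3.78% of all genes), 14 in the hypodermis at L2 (5.3% of all genes) and 4 at L4 (3.16% of all genes). The count of receptors was thus near that in all genes, and below it in the hypodermis at L4. In all, 25 receptors (9.40%) reached this level in some group (7.35% of all genes). Of these, 10 (3.76% of receptors) did so in seam cells only (1.38% of all genes), 12 (4.51%) in the hypodermis only (3.04% of all genes) and 3 (1.13%) in both (2.92% of all genes). Among the 266, 241 reached it in no group, 19 in 1, 4 in 2, *nhr-85* in 3 and *nhr-114* in all 4.

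Occupancy was also tested against 0 with limma, with p-values adjusted by the Benjamini-Hochberg method over all 19983 genes. No receptor passed above 0 in seam cells at L2 (0.2% of all genes did), although 45 had an unadjusted p under 0.05 in either direction (13.2% of all genes). In seam cells at L4, 7 passed above 0 (2.56% of all genes) and 1 below (0.771% of all genes). In the hypodermis, 23 (8.65%) passed at L2 (5.33% of all genes) and 2 at L4 (1.49% of all genes). Over all groups, 28 receptors (10.5%) were above 0 by this test in some group (6.55% of all genes), and 38 (14.3%) by this test or by the 2-fold level (9.75% of all genes). The seam L4 calls numbered 0 without either replicate of seam cells at L4 or of the hypodermis at L2, 5 without either hypodermis L4 replicate and 14 without either seam L2 replicate. The hypodermis L2 calls numbered 0 without either replicate of that group and 12 without either seam L4 replicate. The 2 hypodermis L4 calls were lost without any single replicate of seam cells or of the hypodermis at L4, and 1 remained without either hypodermis L2 replicate. The replicate number was also added as a block, in a single term shared by both cell types, although the design pairs numbers within a strain and not across strains. With this block, 3 were left in seam cells at L4 (*nhr-85*, *nhr-41* and, below 0, *nhr-103*) and 0 in the hypodermis at L4. In the hypodermis at L2, 16 passed with the block, 15 of them among the 23, and *nhr-4*, *nhr-10*, *nhr-30*, *nhr-53*, *nhr-57*, *nhr-103*, *nhr-131* and *nhr-142* were lost while *nhr-3* was gained. The limma adjusted p with the block is given beside each call it ended.

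A group of receptors was occupied in seam cells and not in the hypodermis. *nhr-265* had the highest mean of any receptor in seam cells, with 2.29 and 1.92 at L4 (2.11 ± 0.26, SD, n = 2, limma adjusted p = 0.0409, with the block 0.0810). It had 0.43 and 1.81 at L2, and -0.13 and -0.33 in the hypodermis at L2 and -0.18 and -0.42 at L4. Both seam L4 replicates thus lay above all 4 hypodermis values, and seam L2 lay between, with replicates far apart.

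*nhr-74* was similar, with 1.79 and 1.56 in seam cells at L4 (1.68 ± 0.16, limma adjusted p = 0.0316, with the block 0.0677) and 0.04 and 0.98 at L2. In the hypodermis it lay between -0.26 and -0.02. *nhr-270* had 1.53 and 1.67 in seam cells at L4 (1.60 ± 0.10, limma adjusted p = 0.0399, with the block 0.0664), 0.27 and 1.17 at L2 and values from -0.78 to 0.01 in the hypodermis. All 3 genes therefore showed the same order, with seam L4 highest in both replicates and the hypodermis near or below 0. *nhr-113*, with 0.80 and 0.98 in seam cells at L4 (limma adjusted p = 0.0256, with the block 0.0595) and -0.06 to 0.00 in the hypodermis, stayed under 2-fold. Of the words of 31 bases in *nhr-113*, 42.1% are repeated elsewhere in the genome, as are 24.2% of those in *nhr-74*, and their part in the scores was not tested.

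*nhr-74* and *nhr-270* are also 2 of the 5 receptors that the study put into its RNAi screen, a list chosen on these samples and so no independent evidence. Of the other 3, *nhr-127* had 0.64 and 0.67 in seam cells at L4 (limma adjusted p = 0.0746), *nhr-59* had 0.60 and 1.10 in seam cells at L2 and 0.10 and -0.34 at L4, and *nhr-7* did not exceed 0.37 in any replicate. None of the 5 exceeded 0.32 in any hypodermis replicate. The median over the 5 was 0.51 and 0.65 in seam cells and -0.15 and -0.08 in the hypodermis.

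*nhr-137* had 1.35 and 1.27 in seam cells at L4 (1.31 ± 0.06, limma adjusted p = 0.0415, with the block 0.0805), 0.55 and 0.77 in the hypodermis at L2 and 0.25 and -0.16 at L4. Unlike *nhr-270*, it was thus above 0 in both hypodermis L2 replicates. Beside *nhr-49* and *nhr-114*, which are described further on, 5 receptors were at 2-fold in both seam L4 replicates without passing limma. *nhr-102* had 1.85 and 2.06 (adjusted p = 0.0857 in limma), *nhr-116* 1.93 and 1.56 (0.0504), *nhr-129* 1.12 and 1.23 (0.0623), *nhr-168* 1.87 and 1.37, and *nhr-91* 1.66 and 1.56 (0.0762). *nhr-91* is the worm counterpart of the vertebrate germ cell nuclear factor. In the hypodermis these 5 were spread widely, from -0.27 in *nhr-168* to 1.62 in *nhr-102*. The mean of *nhr-168* there was 0.98 at L2 and 0.42 at L4.

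*nhr-129* and *nhr-168* are neighbours on chromosome V, 94 bases apart and on the same strand. They are the only adjacent pair of receptors of which both reached 2-fold in some group, among 100 pairs that lie within 5000 bases of each other. The flank of *nhr-129* towards *nhr-168* averaged 2.24 over 1000 bases in seam cells at L4, and the flank of *nhr-168* towards *nhr-129* averaged 1.84. Each of these flanks lies mostly within the other gene, so its level follows in part from that gene being at 2-fold. The 2 genes share 1 fragment. Over its 6 own fragments *nhr-129* had 1.075 and 1.471 in seam cells at L4, and *nhr-168* had 1.867 and 1.37 over its 9. What part of the signal belongs to each gene was not tested.

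At L2, the seam cell receptors at 2-fold were *nhr-17* (1.31 and 1.25), *nhr-168* (1.17 and 1.47), *nhr-85* and *nhr-114*. *nhr-17* was the only one of these 4 under 2-fold in both replicates at L4 (0.99 and 0.47). In the hypodermis it had 0.95 and 0.46 at L2 and 0.77 and 0.61 at L4. The limma adjusted p of these 4 at L2 lay between 0.0773 and 0.191.

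A larger group was occupied in the hypodermis at L2. *nhr-11* had 2.14 and 2.40 there (2.27 ± 0.19, limma adjusted p = 0.0126), 0.49 and 1.10 at L4, and 0.90 and 1.52 and then 0.31 and 0.19 in seam cells at L2 and L4. *nhr-22* had 2.10 and 1.89 in the hypodermis at L2 (2.00 ± 0.15, limma adjusted p = 0.0182), 0.69 and 0.21 at L4, and in seam cells 0.65 and 1.27 at L2 and 0.73 and 0.05 at L4. In both genes the hypodermis L2 replicates lay above all 6 others.

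*nhr-4* (1.78 and 1.65, limma adjusted p = 0.0395, with the block 0.0769) and *nhr-31* (1.55 and 1.64, limma adjusted p = 0.0176) also passed in the hypodermis at L2. *nhr-31* is known for its control of genes of the excretory cell. Both had lower values in seam cells at L4, of 1.24 and 0.71 for *nhr-4* and 1.23 and 0.73 for *nhr-31*. Both also had 1 replicate over 2-fold in the hypodermis at L4.

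*nhr-14*, known for its part in iron homeostasis and intestinal immunity, had 1.92 and 1.12 in the hypodermis at L2 (limma adjusted p = 0.0253) and 1.32 and 1.05 at L4, against 0.04 to 0.46 in the 4 seam profiles. *nhr-109* had 1.60 and 1.28 in the hypodermis at L2 (limma adjusted p = 0.0295) and at most 0.48 in seam cells. *nhr-53* had 1.00 and 1.75 (limma adjusted p = 0.0225, with the block 0.0501) and at most 0.08 in seam cells. In these 3 genes no seam replicate exceeded 0.5.

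*nhr-43* had the broadest pattern among those led by the hypodermis, with 1.94 and 1.57 at L2 (limma adjusted p = 0.0315) and 1.33 and 1.13 at L4 in the hypodermis, and 0.68 and 0.88 and then 2.12 and 0.94 in seam cells. *nhr-3* (1.41 and 1.96, limma adjusted p = 0.0548, with the block 0.0291), *nhr-61* (1.48 and 1.11, limma adjusted p = 0.0554) and *nhr-286* (1.00 and 1.84, limma adjusted p = 0.0967) were at 2-fold in the hypodermis at L2 without passing limma without the block. *nhr-61* shares 1 fragment with its neighbour W01D2.1, which has no other fragment and had 1.76 in the hypodermis at L2 and 2.90 in seam cells at L4. Over its 14 own fragments *nhr-61* had 1.464 and 1.103 in the hypodermis at L2. The flanks of 1000 bases of *nhr-61* averaged 1.15 and 1.31 there.

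Beside these and *nhr-85*, limma called 12 receptors above 0 in the hypodermis at L2 that were not at 2-fold in both replicates. The mean was 1.14 for *nhr-97* (1.46 and 0.82), 1.00 for *nhr-204* (1.10 and 0.89), 0.95 for *nhr-62* and 0.92 for *nhr-90*, and lay between 0.44 and 0.78 for *nhr-30*, *nhr-41*, *nhr-57*, *nhr-63*, *nhr-103*, *nhr-131*, *nhr-142* and *nhr-178*. With the block the adjusted p in limma was 0.0645 for *nhr-131* and 0.0535 for *nhr-142*. The test uses the spread of a gene over all 8 replicates, so *nhr-30* was called at a mean of 0.44 (limma adjusted p = 0.0349, with the block 0.0559), whereas *nhr-49* was not at 1.27 (limma adjusted p = 0.176).

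A few receptors were occupied in both cell types. *nhr-114*, known for protecting germline stem cells on a diet poor in tryptophan and for its control of the methionine cycle, was the only receptor at 2-fold in all 4 groups. Seam cells had 1.38 and 1.22 at L2 and 1.23 and 1.27 at L4, against 3.08 and 2.06 in the hypodermis at L2 (2.57 ± 0.73, limma adjusted p = 0.0127) and 2.00 and 1.75 at L4 (1.88 ± 0.18, limma adjusted p = 0.0400, with the block 0.0623). All 4 hypodermis values were above all 4 seam values. In seam cells the adjusted p was 0.117 at L2 and 0.0602 at L4 in limma.

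The gene lies at chrV:4187202-4190008 on the plus strand, wholly inside an intron of Y45G5AM.9, which is on the minus strand. The assay does not separate strands. Over its 31 fragments outside *nhr-114*, Y45G5AM.9 averaged 0.20 and 0.33 in seam cells and 0.66 and 0.33 in the hypodermis, at L2 and L4. These averages lay under *nhr-114* in every group, but signal also ran upstream of it within Y45G5AM.9. The upstream flank of *nhr-114* averaged 0.64 and 0.99 in seam cells and 1.83 and 1.17 in the hypodermis, at L2 and L4. The downstream flank averaged 0.24 and 0.01, then 0.53 and 0.33, in the same order. A single fragment further upstream scored 3.51 and 4.39 in the hypodermis at L2. What part of the signal belongs to each gene was not tested.

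*nhr-85*, related to Rev-Erb and to fly E75 and known for its part in the timing of larval gene expression, had seam cell values of 1.02 and 1.18 at L2 and 2.11 and 1.69 at L4 (1.899 ± 0.30, limma adjusted p = 0.0211), 1.57 and 0.98 in the hypodermis at L2 (limma adjusted p = 0.0295) and 1.54 and 1.10 at L4 (0.0514). It overlaps *npr-14*, on the other strand, over 2261 bp that hold 7 of its 19 fragments. Over its 12 other fragments *nhr-85* averaged 0.39, 1.36, 0.75 and 0.89 in the same order. Over these fragments it passed limma in seam cells at L4 (adjusted p = 0.0433) and the call in the hypodermis at L2 was lost (adjusted p = 0.106). The 13 fragments of *npr-14* outside *nhr-85* averaged 0.03, -0.03, -0.17 and -0.22.

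*nhr-41*, the counterpart of the vertebrate testicular receptors, had the most even values: all 8 replicates lay between 0.49 and 0.73. It passed limma in seam cells at L4 (0.69, adjusted p = 0.0211) and in the hypodermis at L2 (0.68, 0.0145) and L4 (0.60, 0.0355, with the block 0.0739), and had 0.54 and 0.61 in seam cells at L2 (0.0735). *nhr-49*, the HNF4-related regulator of fat desaturation and breakdown, had 1.75 and 1.43 in seam cells at L4 and 1.31 and 1.24 in the hypodermis at L2, but -0.43 and 1.58 in seam cells at L2, the widest gap between replicates among the receptors at 2-fold.

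The control exceeded the fusion most in 2 receptors, the only ones with a mean of -1 or lower in any group. *nhr-103* had -1.30 and -1.03 in seam cells at L4 (-1.17 ± 0.19, limma adjusted p = 0.0184) and 0.71 and 0.75 in the hypodermis at L2 (0.73 ± 0.03, limma adjusted p = 0.0295, with the block 0.0619), so without the block it was called on opposite sides of 0 in the 2 cell types, at different stages. *nhr-117* had -1.51 and -1.74 in seam cells at L4 (limma adjusted p = 0.0527) and was below 0 in all 8 replicates. A value below 0 means more methylation by the free Dam control than by the fusion.

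By role, the 7 receptors with counterparts in flies or vertebrates (*nhr-6*, *nhr-8*, *nhr-41*, *nhr-48*, *nhr-67*, *nhr-85* and *nhr-91*) had medians of 0.58 and 0.51 in seam cells and 0.68 and 0.34 in the hypodermis, at L2 and L4. Of these 7, limma called 0 and 2 in seam cells and 2 and 1 in the hypodermis, all *nhr-85* or *nhr-41*. *nhr-48*, of the same subfamily as *daf-12*, had 0.74 and 1.11 in seam cells at L2 and 0.96 and 0.57 in the hypodermis at L2 (adjusted p = 0.139 and 0.0845 in limma). *nhr-6*, the counterpart of the NR4A receptors with a role in the spermatheca, lay between -0.24 and 0.08. *nhr-67*, the counterpart of tailless, lay between -0.19 and 0.51.

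Among the 7 receptors tied to fat metabolism (*nhr-13*, *nhr-49*, *nhr-62*, *nhr-64*, *nhr-66*, *nhr-76* and *nhr-80*), limma called 1 above 0, *nhr-62* in the hypodermis at L2. *nhr-62*, needed for the long life of worms on a restricted diet, had 0.91 and 0.98 there (limma adjusted p = 0.0257), 0.06 and 0.07 in the hypodermis at L4, and -0.51 and -0.18 in seam cells at L4. *nhr-80*, a partner of NHR-49 in fat desaturation, had at most 0.75 in any replicate. *nhr-64* lay between -0.12 and 0.27.

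The 3 receptors of propionate and methionine metabolism had medians of 0.79 and 0.91 in seam cells and 1.29 and 1.02 in the hypodermis. *nhr-10*, which with *nhr-68* switches on the propionate shunt, had 1.52 and 1.06 in the hypodermis at L2 (limma adjusted p = 0.0351, with the block 0.0660) and 0.52 to 1.06 in seam cells. *nhr-68* had 1.14 and 0.90 in the hypodermis at L4 and did not pass in any group. Of the 5 receptors of detoxification, hypoxia and pathogen response (*nhr-8*, *nhr-45*, *nhr-57*, *nhr-86* and *nhr-176*), only *nhr-57*, a target of the hypoxia factor HIF-1, was called, with 0.93 and 0.60 in the hypodermis at L2 (limma adjusted p = 0.0443, with the block 0.0705). *nhr-60*, described at the nuclear periphery of seam cells, had 1.15 and 0.87 in seam cells at L4 (limma adjusted p = 0.13) and 0.31 and -0.84 in the hypodermis at L2.

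For comparison, of 5 nuclear receptors with other names (*daf-12*, *sex-1*, *unc-55*, *fax-1* and *odr-7*), none was called above 0 in any group. Of the 3 co-regulators, *din-1* and *cbp-1* passed limma in no group. *cbp-1* was nevertheless at 2-fold in both replicates in seam cells at L4 (1.379 and 1.135). It was also at 2-fold in the hypodermis at L2 (1.476 and 1.26) and L4 (1.547 and 1.088). *mdt-15*, a Mediator subunit that binds NHR-49, passed in 2 groups, with 1.26 and 1.02 in seam cells at L4 (limma adjusted p = 0.0343) and 0.86 and 0.99 in the hypodermis at L2 (limma adjusted p = 0.0386). *fat-6*, a desaturase gene controlled by NHR-49 and NHR-80, had 1.26 and 1.95 and then 1.31 and 1.15 in the same groups (limma adjusted p = 0.0301 and 0.0370). It was the only one of the 6 targets of these receptors that was called in any group, and the 6 had medians between -0.11 and 0.05. None of the 4 genes that make dafachronic acid, the ligand of DAF-12, was called above 0.

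The cell types were then compared directly. No receptor passed limma for seam cells against hypodermis at L2 or L4 (0.0% of all genes passed in either), and 42 receptors had an unadjusted p under 0.05 at L2 (10.4% of all genes) and 18 at L4 (4.82% of all genes). An exact permutation test of 2 against 2 values cannot go below p = 0.333 (two-sided). Differences are therefore described by size, counting genes whose replicates did not overlap and whose means differed by at least 1.

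At L2, 2 receptors were higher in seam cells by this measure (1.13% of all genes) and 12 were higher in the hypodermis (3.34% of all genes). At L4, 7 were higher in seam cells (1.2% of all genes) and 1 in the hypodermis (1.01% of all genes). The 2 seam genes at L2, *nhr-265* and *nhr-270*, were also among the 7 at L4. The largest difference at L4 was that of *nhr-265*, with 2.11 in seam cells and -0.30 in the hypodermis (difference 2.41 ± 0.46, SE, limma adjusted p = 0.587). *nhr-270* (1.77 ± 0.34) and *nhr-74* (1.76 ± 0.32) followed, then *nhr-102* (1.47), *nhr-116* (1.37), *nhr-137* (1.27) and *nhr-168* (1.20). *nhr-103* was the single gene in the other direction (-1.44 ± 0.16).

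At L2 the differences towards the hypodermis were led by *nhr-286* (-1.58 ± 0.53), *nhr-109* (-1.38 ± 0.31), *nhr-212* (-1.36 ± 0.21) and *nhr-53* (-1.33 ± 0.26), with limma adjusted p of 0.405, 0.290, 0.186 and 0.234. *nhr-212* came from values below 0 in seam cells (-1.15 and -0.60) against 0.40 and 0.56 in the hypodermis. *nhr-14* (-1.32), *nhr-4* (-1.30), *nhr-114* (-1.27), *nhr-238* (-1.23), *nhr-3* (-1.19), *nhr-11* (-1.06), *nhr-31* (-1.04) and *nhr-22* (-1.03) made up the rest. The poor replication of seam cells at L2 enters each of these 14 differences.

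**Figure D2:**
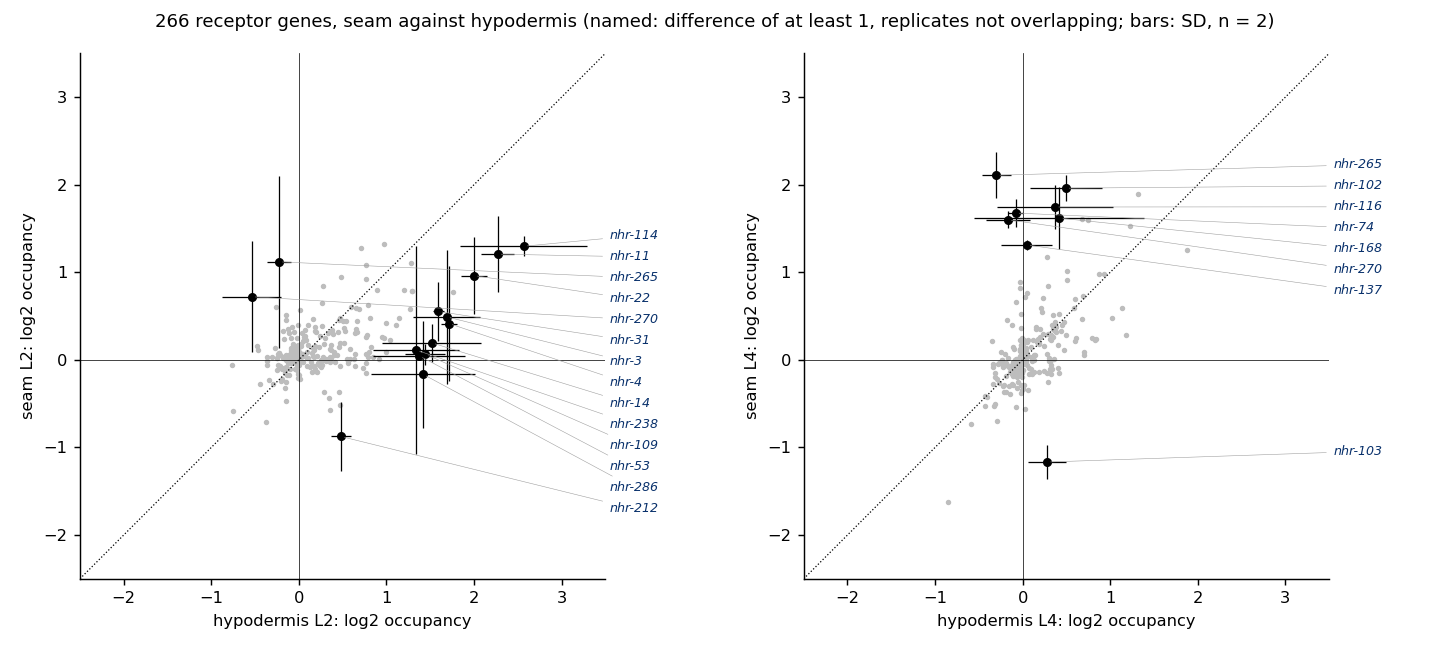
Mean log2 occupancy of the 266 receptor genes in seam cells (vertical axis) against hypodermis (horizontal axis), at L2 on the left and L4 on the right, with the dotted line at equal values. Black points with bars (SD of 2 replicates) are the named genes with a difference of at least 1 and no overlap of replicates, of which 12 of 14 lie below the line at L2 and 7 of 8 above it at L4.

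Between L2 and L4, no receptor passed limma in either cell type (0.0% of all genes in each), nor did any for the difference of the stage change between cell types (0.0% of all genes). Unadjusted p-values under 0.05 were found for 15 receptors in seam cells (8.81% of all genes), 30 in the hypodermis (4.38% of all genes) and 15 for the difference between the stage changes (5.89% of all genes). By size, 4 receptors were higher at L4 in seam cells (1.92% of all genes) and 3 lower (1.32% of all genes). In the hypodermis, 0 were higher at L4 (0.44% of all genes) and 6 lower (1.35% of all genes).

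In seam cells *nhr-116* had the largest stage difference, from -0.40 and 0.47 at L2 to 1.93 and 1.56 at L4 (1.71 ± 0.42, SE, limma adjusted p = 0.429). *nhr-74* (1.17), *nhr-102* (1.16) and *nhr-148* (1.02) were the other 3 in this direction, and *nhr-103* (-1.07), *nhr-117* (-1.04) and *nhr-149* (-1.001) lay the other way. *nhr-148* had only 4 fragments, and *nhr-149* had 3 and shares 345 bp with *nhr-147*.

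In the hypodermis the lower values at L4 were those of *nhr-22* (2.00 to 0.45, difference -1.55, limma adjusted p = 0.675), *nhr-11* (2.27 to 0.80, -1.47 ± 0.29, limma adjusted p = 0.635), *nhr-286* (-1.13), *nhr-44* (-1.08), *nhr-90* (-1.03 ± 0.15) and *nhr-109* (-1.005). *nhr-90* had 1.11 and 0.72 at L2 and -0.23 and 0.00 at L4. In contrast, *nhr-114*, *nhr-43* and *nhr-14* stayed above 2-fold in both replicates at both stages in the hypodermis. Most receptors that led the hypodermis at L2 thus had L4 values under 2-fold, in differences that did not pass the adjusted threshold.

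**Figure D3:**
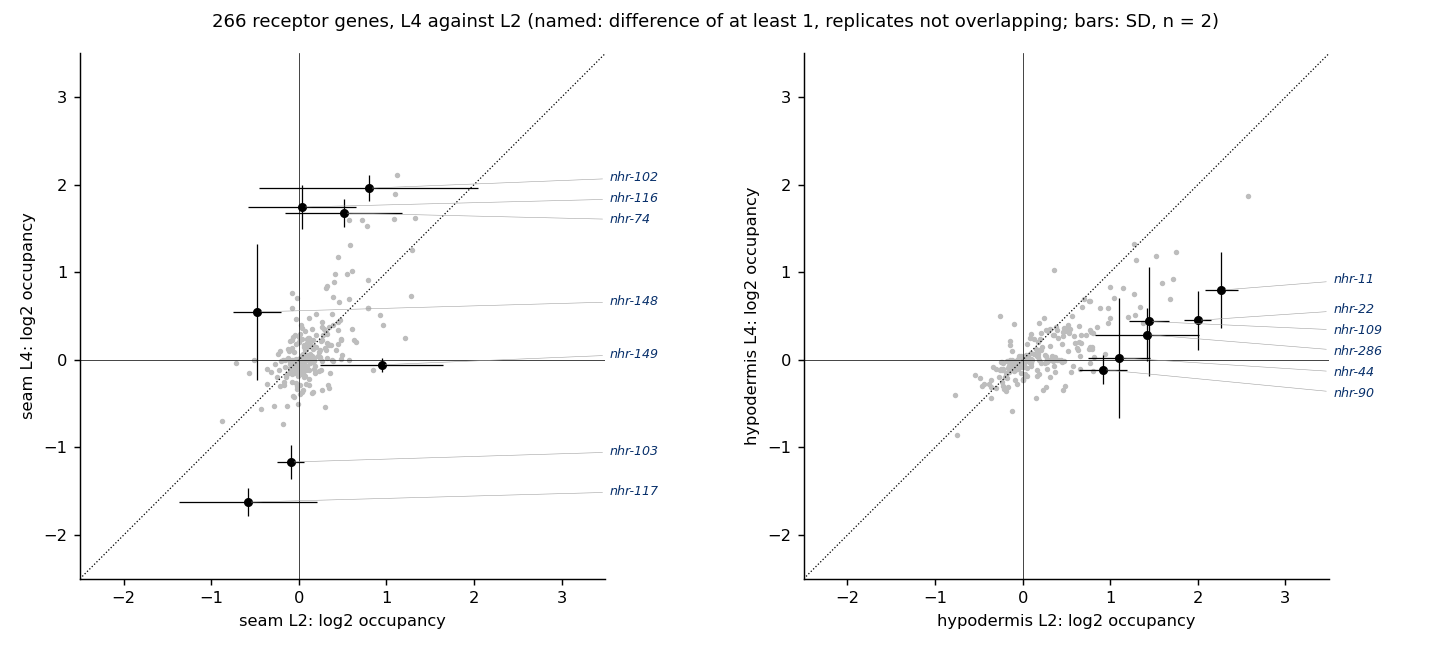
Mean log2 occupancy of the 266 receptor genes at L4 (vertical axis) against L2 (horizontal axis), in seam cells on the left and hypodermis on the right, with the dotted line at equal values and bars of SD (2 replicates) on the named genes with a difference of at least 1 and no overlap of replicates. In seam cells 4 named genes lie above the line and 3 below, and in the hypodermis all 6 lie below it.

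The flanks of the occupied genes were also measured. Since the genes were chosen for the level of their bodies, a body above its flanks is in part fixed by that choice. For the 34 combinations of a receptor and a group at 2-fold, mean occupancy of the gene body exceeded that of both flanks of 1000 bases in 27. The median was 1.56 over the body, 0.62 over the upstream flank and 0.33 over the downstream flank. Cut at the midpoint of the gene, the stretch towards the 3′ end had the higher median (1.74 against 1.36), and the 5′ stretch was higher in 13 of the 34. The upstream flank itself reached 1 in 9 cases and the downstream flank in 4, among them *nhr-270* in seam cells at L4 (2.02 downstream).

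**Figure D4:**
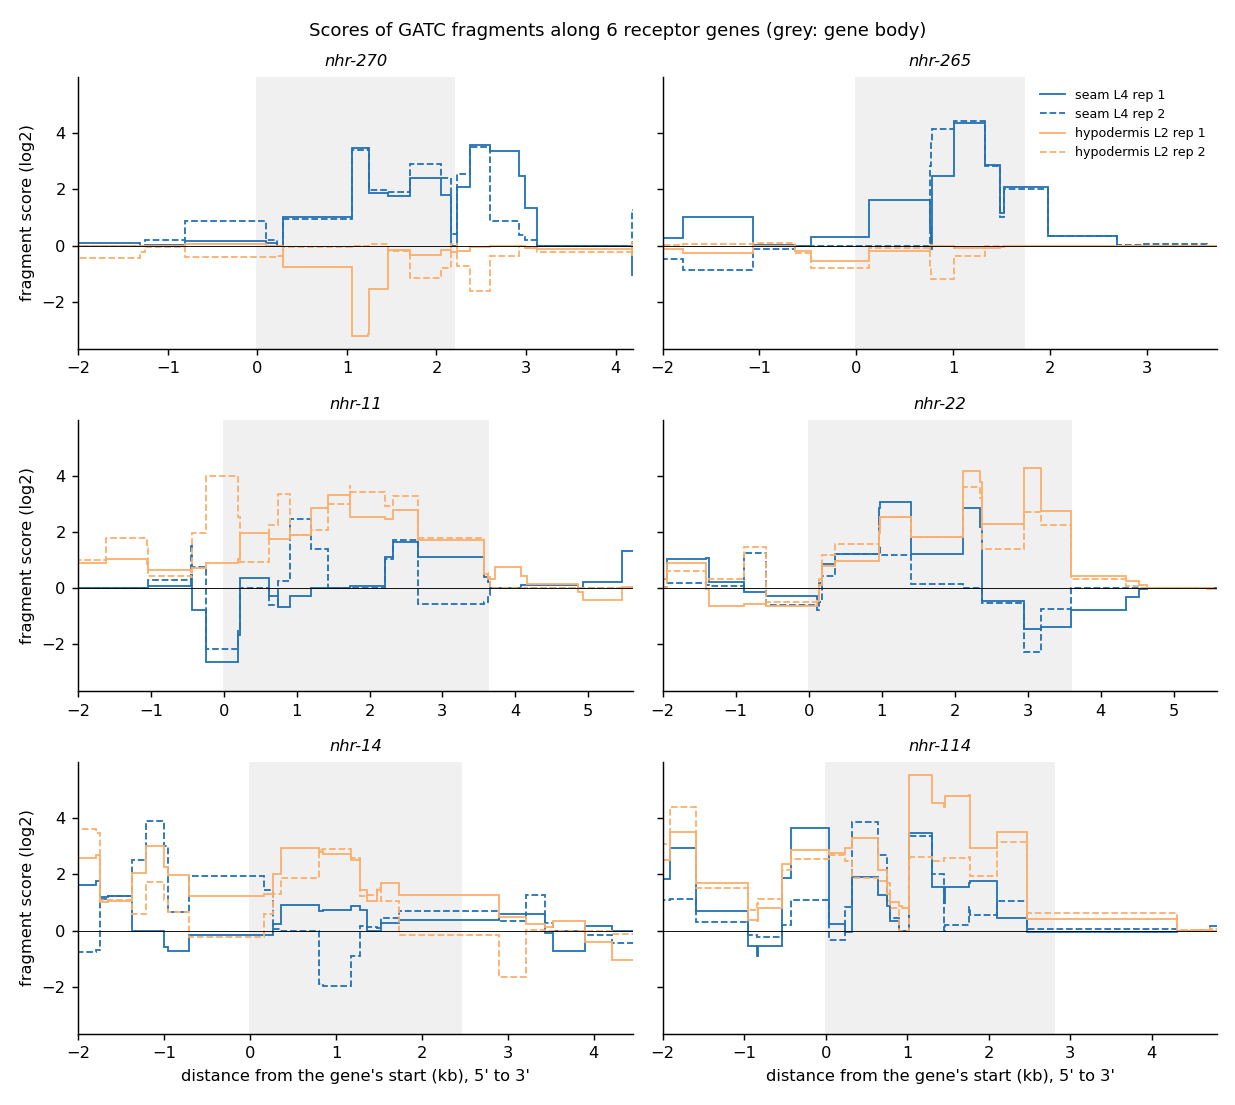
Log2 scores of single GATC fragments (vertical axis) by distance from the start of the gene in kb (horizontal axis, 5′ to 3′) for 6 receptor genes, with the gene body in grey, seam cells at L4 in blue and the hypodermis at L2 in orange, solid for replicate 1 and dashed for replicate 2. In *nhr-270* and *nhr-265* the seam lines rise over the gene body while the hypodermis lines stay near or below 0, and in *nhr-11* and *nhr-22* the hypodermis lines are above 1 over most of the body.

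The occupied receptors differed from the others in where they lie. Of the 25 at 2-fold in some group, 8 are on chromosome V, against 159 of the 241 others. Their median length was 2929 bp with 12 fragments, against 2246 bp with 8, and 9 of the 25 are in an adjacent pair of receptors, as are 141 of all 266. Among all genes the 2-fold share on V was also lower than elsewhere, for example 2.62% against 4.17% in seam cells at L4. These are descriptions of the measured sets without a test.

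GATA factors act in both cell types, and the *dpy-7syn1* promoter itself carries changed GATA sites, so the 250 bases upstream of each gene start were searched on both strands for TGATAA and AGATAG, which can share bases. TGATAA was present in 26.8% of 19973 protein-coding genes with such a window, in 78 (29.3%) of the 266 receptors, in 4 of 13 at 2-fold in seam cells, in 5 of 15 at 2-fold in the hypodermis and in 28.6% of those at 2-fold in neither. AGATAG was present in 7.84% of all genes, in 32 receptors, in 2 of 13 in seam cells (*nhr-102* and *nhr-91*), in 3 of 15 in the hypodermis (*nhr-10*, *nhr-22* and *nhr-43*) and in 11.2% of those in neither. The window of *nhr-22*, led by the hypodermis, holds both words, and that of *nhr-109* holds TGATAA at 2 places close together. *nhr-168*, at 2-fold in seam cells and with a mean of 0.98 in the hypodermis at L2, holds TGATAA at 2 places far apart. These windows are shown from WBcel235 on the strand of the gene, with both words or their reverse complements in capitals.
nhr-22 upstream, chrII:6449793-6450042, minus strand: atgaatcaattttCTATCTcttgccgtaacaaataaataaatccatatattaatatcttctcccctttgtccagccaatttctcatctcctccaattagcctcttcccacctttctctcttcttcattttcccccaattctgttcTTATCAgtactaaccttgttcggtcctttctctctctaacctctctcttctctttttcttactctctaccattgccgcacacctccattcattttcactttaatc
nhr-109 upstream, chrII:4433117-4433366, plus strand: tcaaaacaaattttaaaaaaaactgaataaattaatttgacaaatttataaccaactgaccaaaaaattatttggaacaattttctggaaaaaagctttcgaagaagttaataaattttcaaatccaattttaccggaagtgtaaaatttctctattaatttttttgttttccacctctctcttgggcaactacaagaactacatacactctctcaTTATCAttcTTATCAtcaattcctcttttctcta
nhr-168 upstream, chrV:13333872-13334121, minus strand: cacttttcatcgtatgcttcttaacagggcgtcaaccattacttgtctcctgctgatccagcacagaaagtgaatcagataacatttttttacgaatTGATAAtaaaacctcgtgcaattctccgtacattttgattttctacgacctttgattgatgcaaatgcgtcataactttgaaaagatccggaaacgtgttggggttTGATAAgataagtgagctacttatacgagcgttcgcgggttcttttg

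A match to either word is a description of the sequence and not of binding. No test was made of the shares in the 13 and 15 receptors at 2-fold.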

How the data were processed

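Single-end reads had been mapped by the authors to WBcel235 (Bowtie2 2.3.4 and SAMtools 1.9 in the submitters' processing notes), who then used damidseq_pipeline to compute a log2 ratio of Dam:RPB-6 to Dam:NLS-GFP per GATC fragment for each pair of fusion and control, including its normalisation of both libraries to each other. The deposited values are these log2 scores for 269057 fragments. They hold no read counts, so depth and counting error are unknown. The authors also deposited averaged profiles and lists of genes with a mean occupancy and an FDR, which were not used, and their gene call was not rerun.

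Occupancy was the mean score over fragments overlapping a protein-coding gene, weighted by overlapped length (Python 3.11.15, numpy 2.4.6, pandas 2.3.3), for all 19983 genes with at least 1 fragment. Of 16 pairwise profiles, 8 were used, chosen so that both profiles of a group come from different samples: replicate 1 with control 1 and replicate 2 with control 2, crossed in seam cells at L4 because 1 profile was left out. Group means were tested against 0 and against each other with limma 3.58.1 under R 4.3.3 (a model of 4 group means with eBayes, residual degrees of freedom 4, prior degrees of freedom 1.24, median residual SD 0.208), two-sided, with Benjamini-Hochberg adjustment over all 19983 genes and a threshold of 0.05. The contrasts of cell types were also run on simulated data with known differences and independent noise. That run checked the mean estimates at L2 and the share of small unadjusted p-values at L4. It did not check the tests against 0. The start of every fragment on chromosomes I to V and X was checked to lie at a GATC of the WBcel235 genome, as were both ends of the fragments shown.

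Each egg preparation was divided between L2 and L4, so replicate numbers pair the stages within a strain. Deviations of same-numbered replicates had r = -0.12 between the stages in seam cells and 0.23 in the hypodermis.

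Genes were named if at 2-fold in both replicates of a group, among the 5 highest in a group, among the 4 largest differences without overlap in each direction of a contrast, or past limma. Gene lists came from general knowledge and from the study. The members, lists and rules were chosen with earlier results of these data known. Alternatives covered the weighting, a minimum of 3 fragments, the thresholds of 0.5 and 1.5, both controls per replicate, the profiles as deposited, centring, quantile normalisation, a gene's own fragments, trended and robust eBayes, a replicate block and leaving out each replicate.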

Additional observations from a re-analysis of the deposited data

How the results depend on the processing

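No named level or difference changed sign, but this was in part fixed by the choice of genes and settings. Levels at 2-fold in both replicates and differences without overlap cannot reverse when 1 replicate is left out. The replicate block, the trended and robust eBayes and the minimum of 3 fragments leave the estimates as they are. The median over the receptors in the hypodermis at L4, -0.01, did change sign: it was 0.026 centred, 0.021 after quantile normalisation and 0.011 without replicate 2 of that group. Of 51 named levels, 8 in seam cells at L4, 23 in the hypodermis at L2 and 2 at L4 had passed limma, and the others were named by the 2-fold level alone. Only levels past limma could lose its adjusted threshold, and 26 did so under at least 1 alternative that kept all replicates. Only the others were scored as moved, and 15 moved by more than the replicate SD under at least 1 such alternative. Every level past limma lost the threshold when some replicate was left out, a fit with 1 value in a group. At a log2 threshold of 0.5, 13, 25, 49 and 13 receptors passed in both replicates (seam cells at L2 and L4, hypodermis at L2 and L4), and at 1.5, 0, 7, 6 and 1. In seam cells at L2 this count was 2 over both controls, 7 after quantile normalisation and 2 over own fragments, in seam cells at L4 0 with the profiles as deposited, and in the hypodermis at L4 2 over own fragments. With 1 replicate left out it was 8 to 16, 13 to 19, 18 to 25 and 7 to 12, since 1 replicate then has to pass alone. Receptors past limma against 0 numbered 2 unweighted, 19 over both controls and 11 after quantile normalisation in seam cells at L2 (0 to 3 with a replicate left out). In seam cells at L4 they numbered 3 with the replicate block, 12 unweighted, 49 over both controls, 0 as deposited, 15 centred and 21 after quantile normalisation (0 to 14). In the hypodermis at L2 they numbered 16 with the replicate block, 84 over both controls and 13 as deposited (0 to 24). In the hypodermis at L4 they numbered 0 with the replicate block or with trended and robust eBayes, 6 unweighted, 3 with a minimum of 3 fragments or centred, 33 over both controls, 0 as deposited, 12 after quantile normalisation and 1 over own fragments (0 to 1). Over both controls 26, 1, 6, 1 and 3 receptors passed the contrasts of cell types at L2 and L4, of stages in seam cells and hypodermis, and of the stage changes, but the replicates then share controls and these p-values are too small. The same limit holds for the counts against 0 over both controls given above. The median over the receptors became 0.0058 after quantile normalisation in seam cells at L2, 0.0036 as deposited and 0.013 after quantile normalisation in seam cells at L4 (0 to 0.0039 with a replicate left out), and 0.13 unweighted and 0.094 with a minimum of 3 fragments in the hypodermis at L2. The profiles as deposited include the seam L4 profile that was left out otherwise. The causes of the other changes were not tested. Depth limits every value to an unknown extent.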
